A study of Mus musculus with 6 samples.

Results

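The miR-23, miR-27 and miR-24 microRNAs of the mouse were compared between primary tumors and oviducts. These microRNAs come from a pair of gene clusters, named here the a cluster (miR-23a, miR-27a and miR-24-2) and the b cluster (miR-23b, miR-27b and miR-24-1). The members were the 10 rows of the count table that carry the names of their strands, 5 of the 3p and 5 of the 5p arm, out of 1915 mouse names. The 3 tumors had the genotype Dicer1ko/D1693N, a knocked-out Dicer1 allele beside the D1693N allele, and were labelled as oviduct tissue. The 3 oviducts had the genotype Dicer1+/D1693N, so D1693N was shared by both groups. The labels call the tissues primary and untreated and give no age, strain, promoter or Cre line, nor whether animals were pooled. Tissue state and genotype differed together, as did a tag in the column names, so their parts cannot be told apart.

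MicroRNAs are released from hairpin precursors as a 5p and a 3p strand, of which the guide is loaded into Argonaute to repress messenger RNAs and the passenger is mostly degraded. Dicer makes the cuts that free both strands: its RNase IIIa domain cuts on the 3p side and its RNase IIIb domain, which D1693N alters, on the 5p side. In the miR-23, miR-27 and miR-24 hairpins the guide is the 3p strand. These microRNAs are best known from blood vessels, where miR-23 and miR-27 act on vessel sprouting. In other settings miR-27 is known as a brake on fat cell formation and miR-24 as a brake on cell cycle genes.

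The guides are shown first because the ease of telling the clusters apart depends on their letters. RefSeq (GRCm38.p6) held a mature sequence for 9 of the 10 members, and miR-23b-3p was the member without an entry. Sequences are written 5′ to 3′ with the seed, bases 2 to 8, in capitals.
miR-23a-3p: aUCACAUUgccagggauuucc
miR-27a-3p: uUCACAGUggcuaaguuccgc
miR-27b-3p: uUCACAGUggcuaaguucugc
miR-24-3p: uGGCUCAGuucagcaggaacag
The guides of miR-27a and miR-27b have the same seed and differ by 1 substitution, C19U, counted from the 5′ end with the miR-27a base first. Their first 18 bases are identical. Only these 2 mature names of the RefSeq table carry that seed, while the seed of miR-24-3p was found in 5 mature names. The sources used here do not say how reads too short to reach that base were assigned. The guide miR-24-3p has the same sequence in both clusters, so its counts cannot be divided between them.

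The passengers differ more than the guides and are the strands by which the miR-24 hairpins can be told apart.
miR-27a-5p: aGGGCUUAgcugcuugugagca
miR-27b-5p: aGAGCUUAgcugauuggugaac
miR-24-2-5p: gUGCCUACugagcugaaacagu
miR-24-1-5p: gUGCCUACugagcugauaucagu
The 5p strands of miR-27a and miR-27b differ at 8 of 22 bases, and 1 of the differences, G3A, lies in the seed. The 5p strands of miR-24-2 and miR-24-1 share their seed and their first 16 bases.

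The a cluster lies on the plus strand of chromosome 8 within 404 bases (GRCm38.p6, 84208518 to 84208921). Mir23a comes first, Mir27a follows 79 bases on and Mir24-2 another 56 bases on. In GENCODE M21 it lies in no protein-coding gene, and the last 2 bases of Mir24-2 overlap an exon of the long noncoding RNA Gm26532. The b cluster lies on the plus strand of chromosome 13 within 792 bases (63300484 to 63301275), with 154 bases between Mir23b and Mir27b and 423 bases between Mir27b and Mir24-1. It lies inside the protein-coding gene 2010111I01Rik on the same strand and inside Fancc on the other. Mir23b is intronic in 2010111I01Rik, whereas Mir27b and Mir24-1 lie within exons of some of its transcripts. The hairpins of the 2 miR-24 copies are printed with both mature strands in capitals to show that the 3p arm is shared.
Mir24-2: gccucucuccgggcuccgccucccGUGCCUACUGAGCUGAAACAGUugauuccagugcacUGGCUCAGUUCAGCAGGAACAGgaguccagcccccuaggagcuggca
Mir24-1: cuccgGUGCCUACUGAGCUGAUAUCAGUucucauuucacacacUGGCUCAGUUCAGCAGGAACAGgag

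Mouse microRNA counts per library ranged between 154002 and 272167 in the tumors and between 297039 and 580390 in the oviducts. Levels are given as CPM, the count scaled by library size and by factors of the trimmed mean of M-values (TMM), without scaling by length. The smooth muscle and fibroblast strand miR-143-3p took between 13.9% and 60.9% of the counts in the tumors and between 44.1% and 47.2% in the oviducts. The endothelial list holds only the 2 strands of 1 hairpin, miR-126a, and both were called higher (edgeR). Beside this, 26.9% of all tested names, 41.8% of 3p names and 2.11% of 5p names were called higher. The summed level of the endothelial list was 15100 to 20100 CPM in the tumors and 7120 to 9510 CPM in the oviducts. Of 5 multiciliated-cell strands, 3 were called lower, with a summed level of 416 to 1190 CPM in the tumors and 14700 to 21500 CPM in the oviducts. Of these strands 3 are of the 5p arm, of which 48.4% of tested names were called lower. Of 7 smooth muscle and fibroblast strands 2 were called higher and 3 lower, beside 26.9% and 25.6% of all tested names. Those called higher, miR-199a-3p and miR-214-3p, are 3p strands, of which 41.8% of tested names were called higher. Those called lower were miR-145a-5p, miR-199a-5p and miR-145a-3p. The strands of 1 hairpin went opposite ways there, with a log2 fold change of -3.83 for miR-199a-5p and 2.86 for miR-199a-3p (edgeR adjusted p = 0.00163 and 5.2e-05). The part of the arm in the calls and sums of these lists was not tested. Of 6 epithelial strands 1 was called lower (edgeR), beside 25.6% of all tested names and 10% of 3p names. The log2 fold changes of these 6 all lay between -1.03 and -0.51. Their summed level was 3920 to 7000 CPM in the tumors and 7020 to 12000 CPM in the oviducts. Of 6 leukocyte strands, with log2 fold changes between 0.09 and 1.93, 0 were called (edgeR), beside 52.4% of all tested names. The summed level of the leukocyte list was 1420 to 7290 CPM in the tumors and 1420 to 2390 CPM in the oviducts. In tissue samples fewer cells of a type and less RNA per cell cannot be told apart.

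Together the 10 strands took 1.61%, 3.21% and 5.94% of the counts in tumors 1, 2 and 3, against 2.49%, 2.46% and 2.10% in oviducts 1, 2 and 3. These are shares of unscaled counts, of which miR-143-3p alone took 60.9%, 27.7% and 13.9% in tumors 1, 2 and 3. The part of miR-143-3p in the spread between the tumors was not tested. The order of the strands was the same in both groups. Highest was miR-27b-3p, then miR-23b-3p, miR-24-3p, miR-27a-3p, miR-23a-3p and miR-24-2-5p, with miR-27b-5p, miR-27a-5p, miR-24-1-5p and miR-23b-5p at the low end. In this order miR-23b-3p and miR-24-3p overlapped in their CPM values within each group, as did miR-27a-5p and miR-24-1-5p, and miR-24-1-5p and miR-23b-5p. The values of miR-27b-5p and miR-27a-5p overlapped in the tumors and not in the oviducts. The values of miR-27a-3p and miR-23a-3p overlapped in the oviducts and not in the tumors.

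**Figure D1:**
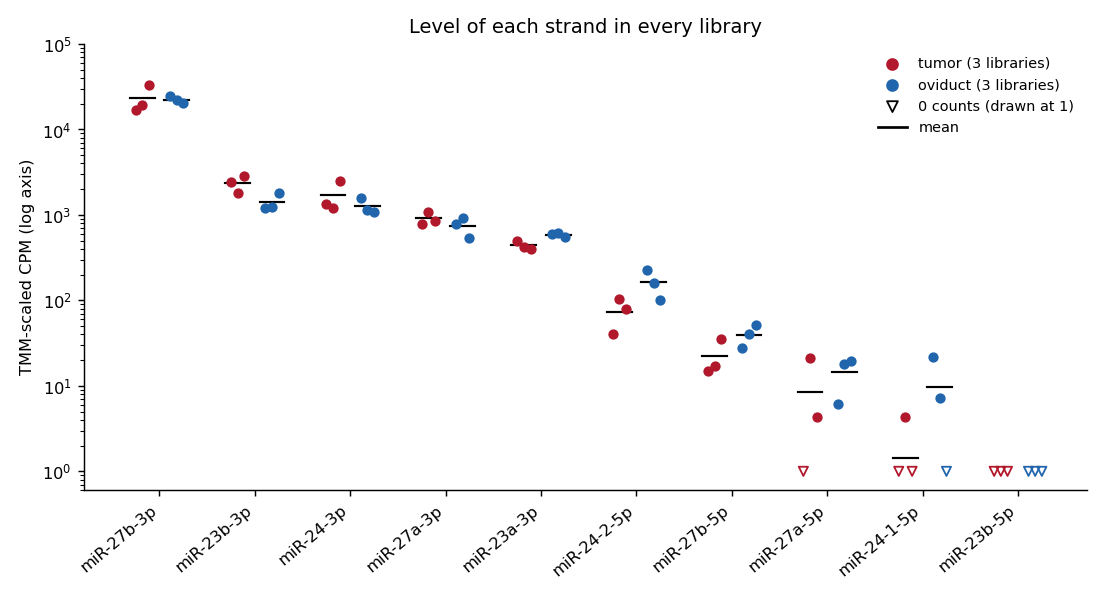
TMM-scaled CPM (log axis) of the 10 strands in each of the 3 tumor and 3 oviduct libraries, with the group mean as a bar and 0 counts as open triangles. The 5 guides lie above the passengers in every library, and miR-27b-3p lies between 16800 and 33300 CPM throughout.

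Whether the guides differed between tumors and oviducts was tested with edgeR's quasi-likelihood test across all 227 microRNAs that passed a low-count filter. Of the 10 strands 7 passed, all 5 guides and the passengers miR-27b-5p and miR-24-2-5p, and 0 of the 7 were called at an adjusted p of 0.05. At an unadjusted p under 0.05 edgeR also gave 0, whereas DESeq2 gave 1, miR-24-2-5p, and called 0 after adjustment. Over all tested microRNAs 52.4% were called, 26.9% higher and 25.6% lower in the tumors. Among 3p names 51.8% were called, 41.8% higher and 10% lower. The 5 guides had a median log2 fold change, tumor over oviduct, of 0.28, beside 0.89 over the 110 tested 3p names and 0.20 over all tested names. Each of the 5 guides lay below the median of the 3p names, at differences from -1.31 (miR-23a-3p) to -0.15 (miR-23b-3p). For miR-23b-3p, 43.6% of the 3p names had a lower log2 fold change. The position of the guides as a set was not tested.

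The guide mmu-miR-27b-3p (mmu for mouse), the most abundant strand of either cluster, had 16800, 19500 and 33300 CPM in tumors 1, 2 and 3, against 24600, 21900 and 20400 CPM in oviducts 1, 2 and 3. It ranked 6th or 7th among all mouse names in each of the 6 libraries. Tumor 3 was higher than every oviduct and the other tumors were lower than every oviduct, so the groups overlapped. The mean was 23200 ± 8840 CPM in the tumors and 22300 ± 2140 CPM in the oviducts (SD, n = 3 each). The log2 fold change was 0.06 (SE 0.31, 95% interval -0.64 to 0.76, edgeR adjusted p = 0.889). It was -0.41 without tumor 3.

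The guide of the other miR-27 gene, mmu-miR-27a-3p, had 787, 1090 and 854 CPM in tumors 1, 2 and 3, against 786, 911 and 543 CPM in oviducts 1, 2 and 3. The groups overlapped, and oviduct 3 was the lowest library. The log2 fold change was 0.28 (SE 0.32, 95% interval -0.44 to 1.00, edgeR adjusted p = 0.471), and -0.23 without oviduct 3. The counts of miR-27a-3p were between 2.56% and 5.58% of those of miR-27b-3p in the tumors and between 2.67% and 4.16% in the oviducts. Whether reads of miR-27b-3p contributed to them was not tested.

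The guide mmu-miR-24-3p, made from both clusters, had 1350, 1210 and 2510 CPM in tumors 1, 2 and 3, against 1570, 1140 and 1070 CPM in oviducts 1, 2 and 3. Tumor 3 stood above the rest, and the other tumors lay within the range of the oviducts. The mean was 1690 ± 713 CPM in the tumors and 1260 ± 267 CPM in the oviducts (SD, n = 3 each). The log2 fold change was 0.42 (SE 0.37, 95% interval -0.40 to 1.24, edgeR adjusted p = 0.346), and -0.08 without tumor 3.

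The miR-23 guides were the members whose groups did not overlap, in opposite directions. The guide mmu-miR-23b-3p had 2410, 1820 and 2840 CPM in tumors 1, 2 and 3, against 1200, 1230 and 1810 CPM in oviducts 1, 2 and 3. Each tumor was above each oviduct, but the lowest tumor exceeded the highest oviduct only narrowly. The log2 fold change was 0.74 (SE 0.34, 95% interval -0.01 to 1.49, edgeR adjusted p = 0.0866), which missed the threshold. Without tumor 2 it was 0.95 and was called (edgeR adjusted p = 0.0489). Without oviduct 1 it was 0.34 (edgeR adjusted p = 0.634). These were the ends of the range over the 6 fits that left out a library each.

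The guide mmu-miR-23a-3p had 496, 423 and 398 CPM in tumors 1, 2 and 3, against 602, 611 and 547 CPM in oviducts 1, 2 and 3. Here each tumor was below each oviduct. The mean was 439 ± 51.0 CPM in the tumors and 587 ± 34.6 CPM in the oviducts (SD, n = 3 each). The log2 fold change was -0.42 (SE 0.29, 95% interval -1.07 to 0.23, edgeR adjusted p = 0.248). As a share of unscaled counts the groups overlapped, at 0.0364% to 0.0591% in the tumors and 0.0468% to 0.0579% in the oviducts. Groups that do not overlap were common in these data, at 60.4% of all tested names and 57.3% of 3p names, beside 2 of the 7 strands.

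**Figure D2:**
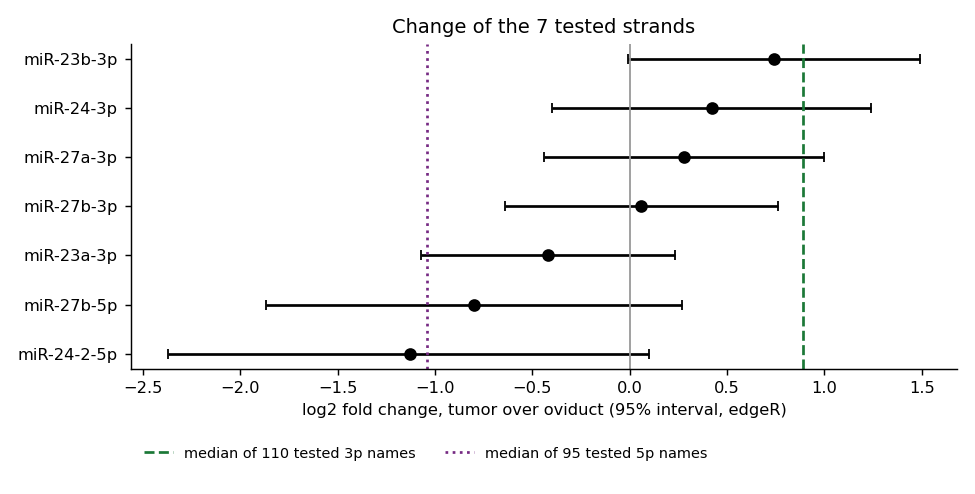
Log2 fold change (tumor over oviduct) of the 7 tested strands with edgeR's 95% interval, beside the median of the 110 tested 3p names (dashed, 0.89) and of the 95 tested 5p names (dotted, -1.04). Each interval includes 0, and the 5 guides lie to the left of the dashed line.

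The fold changes of the guides depended on the scaling between libraries. The direction of each of the 5 guides was the same with TMM, RLE and upper-quartile factors and with library totals alone. With TMM factors taken from 3p names alone, which set those names to be unchanged on average, 4 of the 7 strands were called lower, namely miR-23a-3p, miR-27b-3p, miR-27b-5p and miR-24-2-5p, beside 40.5% of all tested names. The log2 fold changes were then -1.30 for miR-23a-3p, -0.88 for miR-27b-3p and -0.14 for miR-23b-3p, and every guide but miR-23a-3p thereby turned in direction. That scaling moved the median of all tested names to -0.73. A change of scaling shifts nearly all names alike, so a distance from their median stays nearly fixed by construction. It is therefore no test of robustness. Measured from the median of all tested names, the guides hardly moved between 5 scalings. This difference lay between 0.52 and 0.59 for miR-23b-3p, between 0.21 and 0.27 for miR-24-3p, between 0.06 and 0.11 for miR-27a-3p, between -0.15 and -0.09 for miR-27b-3p and between -0.70 and -0.57 for miR-23a-3p.

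The next comparison set the b cluster against the a cluster within each library, which needs no scaling between libraries. Most counts of the miR-23 and miR-27 guides stood under names of the b cluster. Their share was 93.7%, 93.4% and 96.7% in tumors 1, 2 and 3, against 94.9%, 93.8% and 95.3% in oviducts 1, 2 and 3. The exact Clopper-Pearson 95% intervals, which cover counting error only, reached at most from 92.7% to 97.0%. The groups overlapped. This sum was carried by miR-27b-3p. How reads that fit both miR-27 guides were assigned is not stated, so their part in these shares was not tested.

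The miR-23 pair taken alone separated the groups. Its guides too are known to be near-identical in sequence, and how reads that fit both were assigned is not stated, so the part of such reads in this ratio was not tested. The count of miR-23b-3p was 4.85, 4.30 and 7.13 times that of miR-23a-3p in tumors 1, 2 and 3, against 2.00, 2.01 and 3.30 times in oviducts 1, 2 and 3. Every tumor thus had a higher ratio of miR-23b-3p to miR-23a-3p than every oviduct. The mean log2 ratio was 2.40 ± 0.38 in the tumors and 1.24 ± 0.42 in the oviducts (SD, n = 3 each), a difference of 1.16 (SE 0.33) or 2.23-fold. The two-sided exact permutation p was 0.1, the smallest that 3 against 3 allows, and 0.25 after adjustment over the 5 ratios compared. The difference lay between 0.94 and 1.40 with any library left out. Groups that do not overlap were common in these data, at 57.3% of 3p names and 56.3% of hairpin 5p:3p ratios. Several cell-type lists also differed between the groups, among them the endothelial strands of miR-126a (higher in the tumors) and the multiciliated-cell strands (lower). Their part in the difference of the miR-23 ratio was not tested.

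The miR-27 pair did not follow the miR-23 pair. The count of miR-27b-3p was 21.4, 17.9 and 39.0 times that of miR-27a-3p in tumors 1, 2 and 3, against 31.3, 24 and 37.5 times in oviducts 1, 2 and 3. The groups overlapped, with tumor 3 the highest and the other tumors the lowest. The difference in log2 ratio was -0.31 (SE 0.39, two-sided exact permutation p = 0.5, adjusted p = 0.625).

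Among the 5p strands of miR-24, that of the a cluster had more counts. As the guide miR-24-3p cannot be divided between the copies, these passenger counts do not tell which cluster gave more miR-24. The b-cluster strand miR-24-1-5p had 0, 1 and 0 counts in tumors 1, 2 and 3, beside 8, 24 and 18 counts of the a-cluster strand miR-24-2-5p. In oviducts 1, 2 and 3 miR-24-1-5p had 7, 4 and 0 counts beside 73, 88 and 26 counts of miR-24-2-5p. The a-cluster strand was thus the more frequent passenger in each of the 6 libraries, while the miR-23 and miR-27 guides of the b cluster were the more frequent guides in each. The difference between the groups in the log2 ratio of miR-24-1-5p to miR-24-2-5p was 0.00 (SE 0.80, two-sided exact permutation p = 1). At counts this low a difference was not detectable at this depth.

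Hairpins of a cluster are cut from a common primary transcript, so their guides were also compared with each other. These ratios were chosen after the data had been seen. In the a cluster the count of miR-27a-3p was 1.59, 2.58 and 2.14 times that of miR-23a-3p in tumors 1, 2 and 3, against 1.30, 1.49 and 0.993 times in oviducts 1, 2 and 3. The groups did not overlap, which was common in these data, and the log2 difference was 0.72 (SE 0.27, two-sided exact permutation p = 0.1, adjusted p = 0.25). In the b cluster the count of miR-27b-3p was 7, 10.7 and 11.7 times that of miR-23b-3p in tumors 1, 2 and 3, against 20.4, 17.9 and 11.3 times in oviducts 1, 2 and 3. Here the tumors were lower on average but tumor 3 exceeded oviduct 3, and the log2 difference was -0.74 (SE 0.35, two-sided exact permutation p = 0.2, adjusted p = 0.333). The ratio of miR-27 to miR-23 was thus higher in the b than in the a cluster in each of the 6 libraries.

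**Figure D3:**
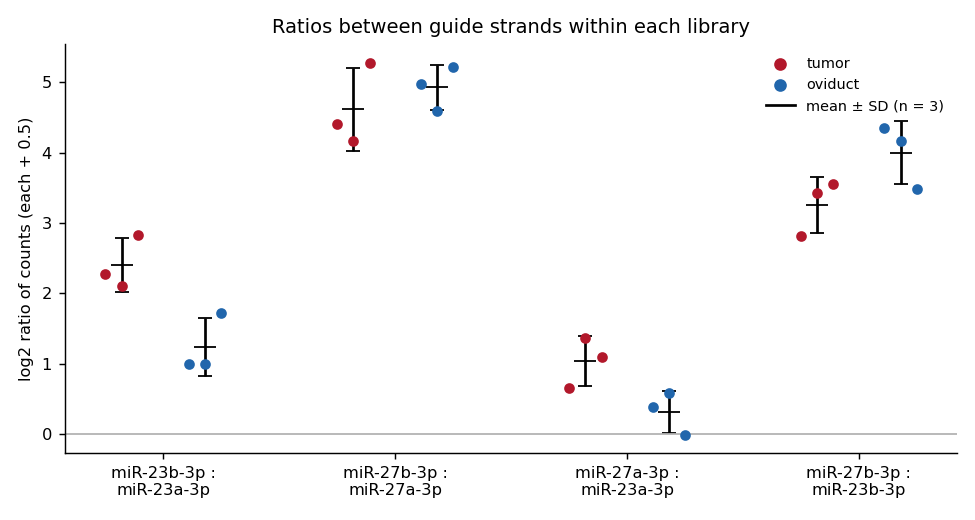
Log2 ratios between guide strands within each of the 3 tumor and 3 oviduct libraries (points), with mean ± SD. The ratio of miR-23b-3p to miR-23a-3p averages 2.40 in the tumors and 1.24 in the oviducts without overlap, whereas the groups overlap for miR-27b-3p to miR-27a-3p.

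The guides were then set against their passengers. Passengers were rare in both groups, and the miR-24 hairpins had the largest passenger share of the 5 hairpin families. The 5p strand of miR-23b had 0 counts in all 6 libraries, beside 1555 counts of the 3p strand in the tumors and 1521 in the oviducts. A count of 0 allows a share of up to 0.193% in the tumors and 0.197% in the oviducts. The strand miR-23a-5p, which the table also holds, had 0 counts in all 6 libraries as well. The 5p:3p ratios of miR-23a and miR-23b therefore rest on the pseudocount and the 3p counts alone, and no change of the ratio can be read from them.

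The passenger of miR-24 was the one with most counts. Summed over its 2 copies it took 2.88%, 8.14% and 3.05% of the miR-24 counts in tumors 1, 2 and 3, against 13.7%, 12.8% and 8.70% in oviducts 1, 2 and 3. Each tumor was below each oviduct, with tumor 2 close to oviduct 3, beside 56.3% of all hairpins whose groups did not overlap in the log2 5p:3p ratio. The mean share was 4.69% ± 2.99 in the tumors and 11.7% ± 2.67 in the oviducts (SD, n = 3 each), from 51 of 1176 and 198 of 1600 counts. The log2 5p:3p ratio differed by -1.55 (SE 0.64, 95% interval -2.97 to -0.13, limma adjusted p = 0.0669), which missed the threshold. An edgeR interaction of arm and group called it, with the same log2 value of -1.55 (adjusted p = 0.0179), and limma called it with a pseudocount of 5 (adjusted p = 0.0332) and without tumor 2 (log2 -2.05, adjusted p = 0.0242). None of the other alternatives run for the ratio of the pooled miR-24 hairpins gave a call. In the main limma fit 47.2% of all 142 hairpins were called lower and the median was -1.53, so the miR-24 value was close to that median. The share of all hairpins called under the alternatives was not computed.

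Most of the miR-24 passenger counts were those of miR-24-2-5p. It had 40.1, 103 and 78.8 CPM in tumors 1, 2 and 3, against 227, 160 and 102 CPM in oviducts 1, 2 and 3. Tumor 2 just exceeded oviduct 3, so the groups overlapped. The log2 fold change was -1.13 (SE 0.56, 95% interval -2.37 to 0.10, edgeR adjusted p = 0.108), beside a median of -1.04 over the 95 tested 5p names. Of these 5p names 48.4% were called lower and 2.11% higher. The other copy, miR-24-1-5p, had 1 count in the tumors and 11 in the oviducts and did not pass the filter.

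The passenger of miR-27b was rarer. It took 0.0892%, 0.0875% and 0.105% of the miR-27b counts in tumors 1, 2 and 3, against 0.113%, 0.182% and 0.250% in oviducts 1, 2 and 3. Each tumor was below each oviduct, from 15 passenger counts in the tumors and 44 in the oviducts. The same 56.3% of all hairpins without overlap stands beside this. The log2 5p:3p ratio differed by -0.78 (SE 0.58, 95% interval -2.07 to 0.50, limma adjusted p = 0.292), and by -0.26 with a pseudocount of 5. As a level, miR-27b-5p had 15.0, 17.1 and 35.0 CPM in tumors 1, 2 and 3, against 27.9, 40 and 51.2 CPM in oviducts 1, 2 and 3. Those groups overlapped, and the log2 fold change was -0.80 (SE 0.48, 95% interval -1.87 to 0.27, edgeR adjusted p = 0.186).

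The passenger of miR-27a had 0, 5 and 1 counts in tumors 1, 2 and 3, against 2, 10 and 5 counts in oviducts 1, 2 and 3. Its share of the miR-27a counts was 0.811% ± 0.996 in the tumors and 2.08% ± 1.36 in the oviducts (SD, n = 3 each). The groups overlapped, and the log2 5p:3p ratio differed by -1.32 (SE 0.82, 95% interval -3.13 to 0.49, limma adjusted p = 0.205). With so few counts this value moved with the pseudocount, to -2.14 at 0.1 and -0.22 at 5, and lay between -2.03 and -0.65 with any library left out. The strand did not pass the filter for single strands.

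In all, limma called 0 of the 5 hairpin families, and miR-24 was the 1 family whose unadjusted p was under 0.05. Over all 142 hairpins tested 47.2% were called lower and 4.23% higher, and the median log2 difference was -1.53. The 3 families with passenger counts lay at -0.78 (miR-27b), -1.32 (miR-27a) and -1.55 (miR-24), of which the first and second depend on the pseudocount as given above. The groups did not overlap in the log2 ratio for miR-24 and miR-27b, nor, through the pseudocount, for miR-23a, where 56.3% of all hairpins did not overlap.

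**Figure D4:**
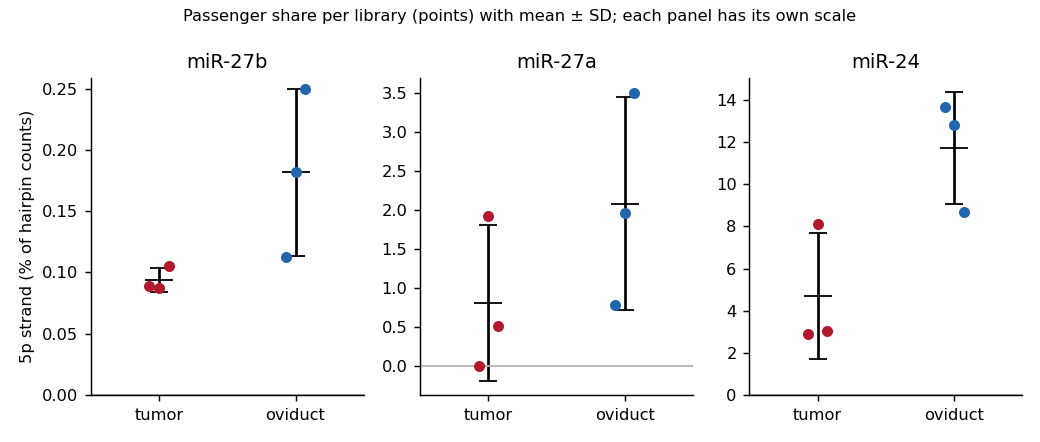
Share of the 5p strand in the counts of miR-27b, miR-27a and miR-24 (percent, a scale of its own in each panel) in the 3 tumor and 3 oviduct libraries, with mean ± SD. The tumors lie below the oviducts without overlap for miR-27b and miR-24, at 4.69% and 11.7% on average for miR-24. Of all 142 hairpins tested, 56.3% had log2 5p:3p ratios without overlap of the groups.

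Hairpins of the miR-3074 genes overlap the miR-24 hairpins on the other strand. The strand miR-3074-5p had 1 count in the tumors and 2 in the oviducts, and the 3p strands of both miR-3074 copies had 0 counts in all 6 libraries.

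The microRNAs whose pattern over the 6 libraries was most like that of miR-24-3p were miR-92a-3p, miR-320-3p and miR-10a-5p. Likeness was measured as the root mean square difference of centred log2 CPM, which was 0.26, 0.29 and 0.32 for these, beside a median of 0.97 over 167 microRNAs with at least 100 CPM. For miR-27b-3p they were miR-322-5p, miR-92a-3p and miR-10a-5p, at 0.24, 0.24 and 0.27, beside a median of 0.84. The level of miR-92a-3p was 7100 ± 1710 CPM in the tumors and 6180 ± 722 CPM in the oviducts (SD, n = 3 each).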

How the data were processed

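Small RNA of 3 tumors and 3 oviducts was sequenced from total RNA isolated with a miRNeasy kit and built into TruSeq small RNA libraries, per the labels' protocols. Per the submitters' processing notes, cutadapt removed the adapters. The authors deposited raw counts, as whole numbers per mature microRNA name without normalization, and per the file headers these came from BAM files of trimmed reads. No source used here names the aligner, the counter or the microRNA reference, or says how reads matching several names were treated. Rows of other species (67 names, 10 counts) were dropped.

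Counts were tested with edgeR 4.0.16 in R 4.3.3, with filterByExpr at a minimum count of 10, TMM scaling (0.733 to 1.48 in the tumors, 0.855 to 0.948 in the oviducts) and the robust quasi-likelihood test on all 227 names that passed. A count of 3 was worth between 12.8 and 15.0 CPM in the tumors and between 5.45 and 11.8 CPM in the oviducts. The log2 5p:3p ratio, with 0.5 added to each count, was tested with limma 3.58.1 on 142 hairpins averaging at least 20 counts, with copies pooled. Adjusted p-values are two-sided Benjamini-Hochberg values with a threshold of 0.05. DESeq2 1.42.0, further scalings and filters, and fits without each library served as alternatives. The scripts were tested on simulated data. Libraries of a group were no repeated deposits (chi-square per degree of freedom at least 30.7). Nothing in the labels says that the samples are separate animals, and the p-values then reflect only the spread between these samples, possibly technical. Intervals of shares cover counting error only. The members, lists and tests were chosen with earlier results of these data known. All members were named, with miR-23a-5p, the miR-3074 names and, by pattern, the 3 nearest names of at least 100 CPM to miR-24-3p and to miR-27b-3p. Genome positions are those of RefSeq and GENCODE and were used for location only.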

Additional observations from a re-analysis of the deposited data

How the results depend on the processing

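With TMM factors from 3p names alone 4 of 7 member strands were called lower in place of 0, beside 40.5% of all tested names, and the log2 values reversed to -0.14 for miR-23b-3p, -0.62 for miR-27a-3p, -0.88 for miR-27b-3p and -0.52 for miR-24-3p. The construction of those factors shows the cause, since the median of all names moved to -0.73. The median was 0.65 with library totals alone, and 0 members were called. Values near 0 reversed under other settings, and the cause was not tested. For miR-27a-3p and miR-27b-3p these were -0.04 and -0.28 with no low-count filter and -0.03 and -0.21 with a minimum mean of 10 CPM. With any library left out, the ranges were 0.34 to 0.95 for miR-23b-3p, -0.23 to 0.36 for miR-27a-3p, -0.41 to 0.24 for miR-27b-3p and -0.08 to 0.68 for miR-24-3p, and for the pseudocount-bound 5p:3p ratio of miR-23b -0.27 to 0.13. Between 0 and 1 member strands and between 0 and 1 hairpins were called in those fits. With a pseudocount of 5, and with the edgeR interaction, 1 hairpin was called. The log2 ratio of miR-24-1-5p to miR-24-2-5p differed by 0.95 with a pseudocount of 5, -0.82 with 0.1, and between -0.65 and 0.57 with a library left out, so it gives no direction.

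Deviations of same-numbered tumors and oviducts correlated at -0.05, 0.09 and -0.14, and those of different numbers between -0.14 and 0.15. With 3 libraries in each group these values cannot decide whether the replicate numbers pair the samples. With the replicate block 0 member strands and 0 hairpins were called, the log2 value of miR-27b-3p was 0.00, and the difference for the miR-23 guides was 1.16. Leaving out miR-143 counts, an alternative chosen after seeing the data, gave 0 calls among the 6 member strands then tested. The tumors held 51 passenger counts for miR-24, 15 for miR-27b, 6 for miR-27a and 0 for miR-23a and miR-23b, so depth limits the passenger comparisons.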
